A study of Homo sapiens with 9 samples.

Results

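The MHC class I antigen presentation pathway was followed through 9 of its genes in the breast cancer cell line MDA-MB-231 and in 2 metastatic sub-populations of it. The 9 genes were taken by symbol from the 58884 genes of the count table. They are the heavy chain genes HLA-B, HLA-C, HLA-E and HLA-F, the light chain gene B2M, the transporter genes TAP1 and TAP2, and the immunoproteasome genes PSMB8 and PSMB9. All 9 passed the filter on low counts, which left 13001 genes for testing.

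Par is the parental MDA-MB-231 line, a claudin-low line that is widely used as a model of triple-negative breast cancer. LM2 and BrM2 are sub-populations of it that were selected in mice for colonizing the lung and the brain, respectively. All 3 lines were grown as untreated monolayers in serum-containing medium for 3 days, so that the libraries come from cultured cells and not from metastases. RNA-seq was done on 3 replicates of each line, harvested at different passages, and the spread between them is therefore the spread between passages of 1 line.

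MHC class I molecules show peptides from inside the cell to CD8+ T cells. The proteasome cuts proteins into peptides, and PSMB8 and PSMB9 replace constitutive subunits of it after interferon signalling. TAP1 and TAP2 together form the transporter that carries the peptides into the endoplasmic reticulum, where they are loaded on a heavy chain bound to beta-2-microglobulin, the product of B2M. HLA-B and HLA-C are classical heavy chains, whereas HLA-E and HLA-F are less polymorphic and are also known as ligands of natural killer cell receptors. The transactivator NLRC5 and interferon-induced factors such as IRF1 are known to drive transcription of these genes.

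Total counts on genes lay between 14371858 and 24511786 per library. VIM and CD44, markers of claudin-low cells, were high in all 3 lines, and PGR was at 0 counts in Par and LM2 and reached at most 4 counts in BrM2. CLDN4, which claudin-low cells lack by definition, was at 95.4 ± 19.6 CPM (counts per 1000000 of the normalized library size, SD, n = 3) in Par, 5.84 ± 1.69 CPM in LM2 and 9.54 to 32.7 CPM in BrM2, so this marker went against that description, most of all in Par. Other markers of the same list were mixed. CLDN3 reached at most 9 counts, CDH1 37 counts and ESR1 16 counts in any library. KRT8 was at 853, 516 and 508 CPM on average in Par, LM2 and BrM2, and KRT18 at 432, 428 and 410 CPM, so both epithelial keratins were high. ERBB2 was at 112, 86.0 and 83.6 CPM, CLDN7 at 13.4, 8.31 and 15.7 CPM, and EPCAM at 7.17, 4.82 and 6.09 CPM in the same order. Leukocyte RNA was scarce. The pan-leukocyte gene PTPRC did not exceed 6 counts in any library, and 12 leukocyte markers summed to 9.99 to 19.0 CPM in Par, 6.82 to 13.7 CPM in LM2 and 4.55 to 7.59 CPM in BrM2. Their part in the results was not tested. As the RNA came from bulk cultures, fewer cells that express a gene and less RNA per cell cannot be told apart.

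Replicate 1 stood apart from replicates 2 and 3 in all 3 lines, and it did so in most of the 9 genes. On the log2 scale, and averaged over the lines, replicate 1 was higher by 1.08 for HLA-C, 1.03 for PSMB8, 0.97 for HLA-B, 0.94 for PSMB9, 0.78 for TAP1, 0.77 for HLA-E and 0.44 for HLA-F. B2M and TAP2 did not share this shift, with differences of -0.16 and 0.08. The median was 0.78 over the 9 genes and 0.01 over all genes tested. Genes are called where the adjusted p of edgeR's quasi-likelihood test was below 0.05, and a log2 fold change below 0 stands for a lower level in the line named first. Since libraries of the same number deviated together, each comparison was also fitted with the replicate number as a block, and the blocked value is given for each of the 9 genes where it changed a call. Whether the numbers mark pairs beyond the shift of replicate 1 was not tested, and the blocked values rest on such pairs.

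The promoters of the 4 genes that passed the threshold between BrM2 and Par are shown beside motifs that are known from promoters of class I genes. They are the 250 bases before the annotated start, in RefSeq's GRCh38.p14, read 5′ to 3′ on the strand of the gene. Capitals mark an interferon-response element (GAAA, a pair of any bases, GAAA), its short core (GAANNGAAA), an NF-kappa-B motif (GGG, a pair of any bases, TT, any base, CC) or a CCAAT-type Y box (TGATTGG), on either strand.
HLA-B promoter, chr6:31357180-31357429, minus strand: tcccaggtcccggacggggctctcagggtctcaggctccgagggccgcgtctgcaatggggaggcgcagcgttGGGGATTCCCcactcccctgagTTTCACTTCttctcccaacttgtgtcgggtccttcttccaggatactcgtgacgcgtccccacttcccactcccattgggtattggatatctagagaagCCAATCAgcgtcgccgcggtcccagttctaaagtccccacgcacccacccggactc
HLA-F promoter, chr6:29723184-29723433, plus strand: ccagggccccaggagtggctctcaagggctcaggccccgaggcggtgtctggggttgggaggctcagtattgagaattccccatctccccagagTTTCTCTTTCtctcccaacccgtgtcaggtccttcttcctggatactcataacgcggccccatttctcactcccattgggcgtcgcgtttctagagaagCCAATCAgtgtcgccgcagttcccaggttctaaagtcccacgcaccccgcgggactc
B2M promoter, chr15:44711267-44711516, plus strand: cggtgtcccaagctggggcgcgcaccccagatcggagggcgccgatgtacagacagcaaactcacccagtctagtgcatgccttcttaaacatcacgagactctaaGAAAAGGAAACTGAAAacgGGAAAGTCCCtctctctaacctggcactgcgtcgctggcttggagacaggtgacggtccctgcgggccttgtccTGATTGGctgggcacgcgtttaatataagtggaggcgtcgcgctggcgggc
TAP2 promoter, chr6:32838740-32838989, minus strand: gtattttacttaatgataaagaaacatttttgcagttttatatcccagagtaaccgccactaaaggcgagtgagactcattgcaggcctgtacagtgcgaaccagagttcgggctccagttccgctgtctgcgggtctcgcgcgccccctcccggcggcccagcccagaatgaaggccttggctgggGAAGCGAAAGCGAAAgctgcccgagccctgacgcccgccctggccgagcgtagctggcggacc

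In this window HLA-B held the short core, the NF-kappa-B motif and the Y box, HLA-F the interferon-response element and the Y box, and B2M all of them apart from the short core, with 2 overlapping interferon-response elements. TAP2, the only one of the 4 genes to rise, held an interferon-response element that overlapped a short core, and neither the NF-kappa-B motif nor the Y box was spelled out there. The Y box started at almost the same distance in HLA-B (56 bases before the start), HLA-C (56 bases) and HLA-F (57 bases). TAP1 held 2 overlapping interferon-response elements and an NF-kappa-B motif, and the windows of PSMB8 and PSMB9 held none of the 4 motifs. The matches of TAP1 lie in the 488 bases between the starts of TAP1 and PSMB9, farther from PSMB9 than its window of 250 bases reaches. Of 35116 promoters of the same length, 3.02% held the interferon-response element, 6.56% the short core, 5.07% the NF-kappa-B motif and 6.62% the Y box. The letters were chosen with these promoters in view, and a match is a description of the sequence and not of a bound site. The promoter of HLA-E was not used here.

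**Figure D1:**
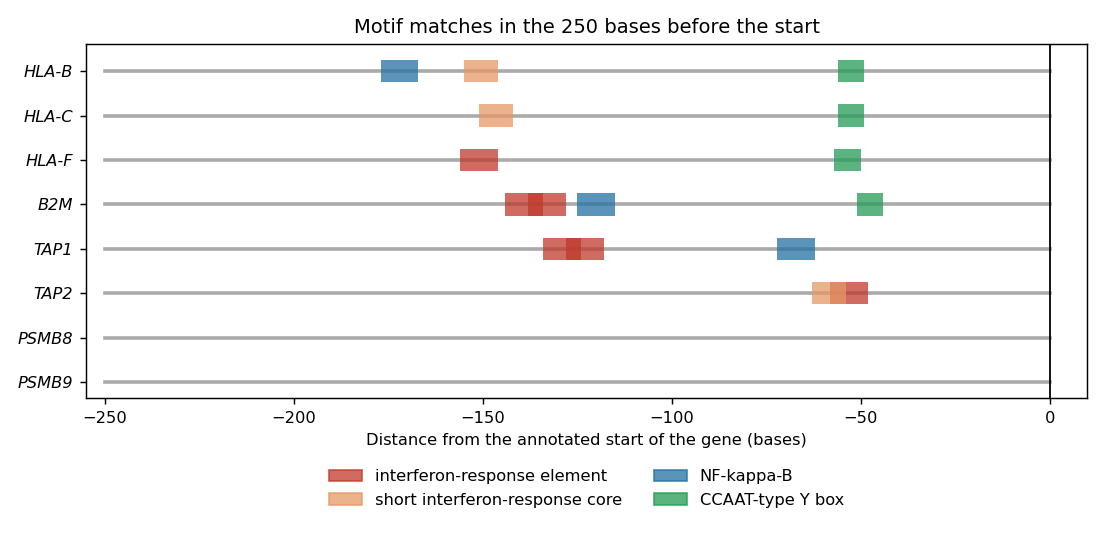
Motif matches in the 250 bases before the start of 8 of the 9 genes, drawn by distance from the start in bases, with 1 color per motif. The Y boxes of HLA-B, HLA-C, HLA-F and B2M line up close to the start, and no match is drawn for PSMB8 and PSMB9.

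On chromosome 6, within 3.14 megabases of the MHC, lie 8 of the 9 genes, and B2M lies on chromosome 15. TAP1, TAP2, PSMB8 and PSMB9 are neighbors there, and TAP1 and PSMB9 are transcribed away from each other, with 488 bases between their starts. Among the 9 genes, B2M had the highest RNA level in every line when counts were divided by gene length, with 295 ± 17.4, 240 ± 22.5 and 166 ± 15.9 CPM per kilobase (SD, n = 3) in Par, LM2 and BrM2. In Par it was followed by HLA-B (144 ± 53.0 CPM per kilobase), HLA-E (130 ± 31.7) and HLA-C (66.0 to 134), whose libraries overlapped. HLA-E took the second place in LM2 with 106 ± 44.9 and in BrM2 with 104 ± 34.5 CPM per kilobase, and in BrM2 its libraries did not overlap those of HLA-B (42.9 ± 15.8). HLA-F had the lowest level in every line, from 1.42 ± 0.401 CPM per kilobase in Par to 0.365 ± 0.0111 in BrM2. With the length of the longest transcript HLA-F was at 3.98 CPM per kilobase in Par, still the lowest, and TAP2 at 12.6 instead of 7.54, above PSMB9 at 11.2.

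**Figure D2:**
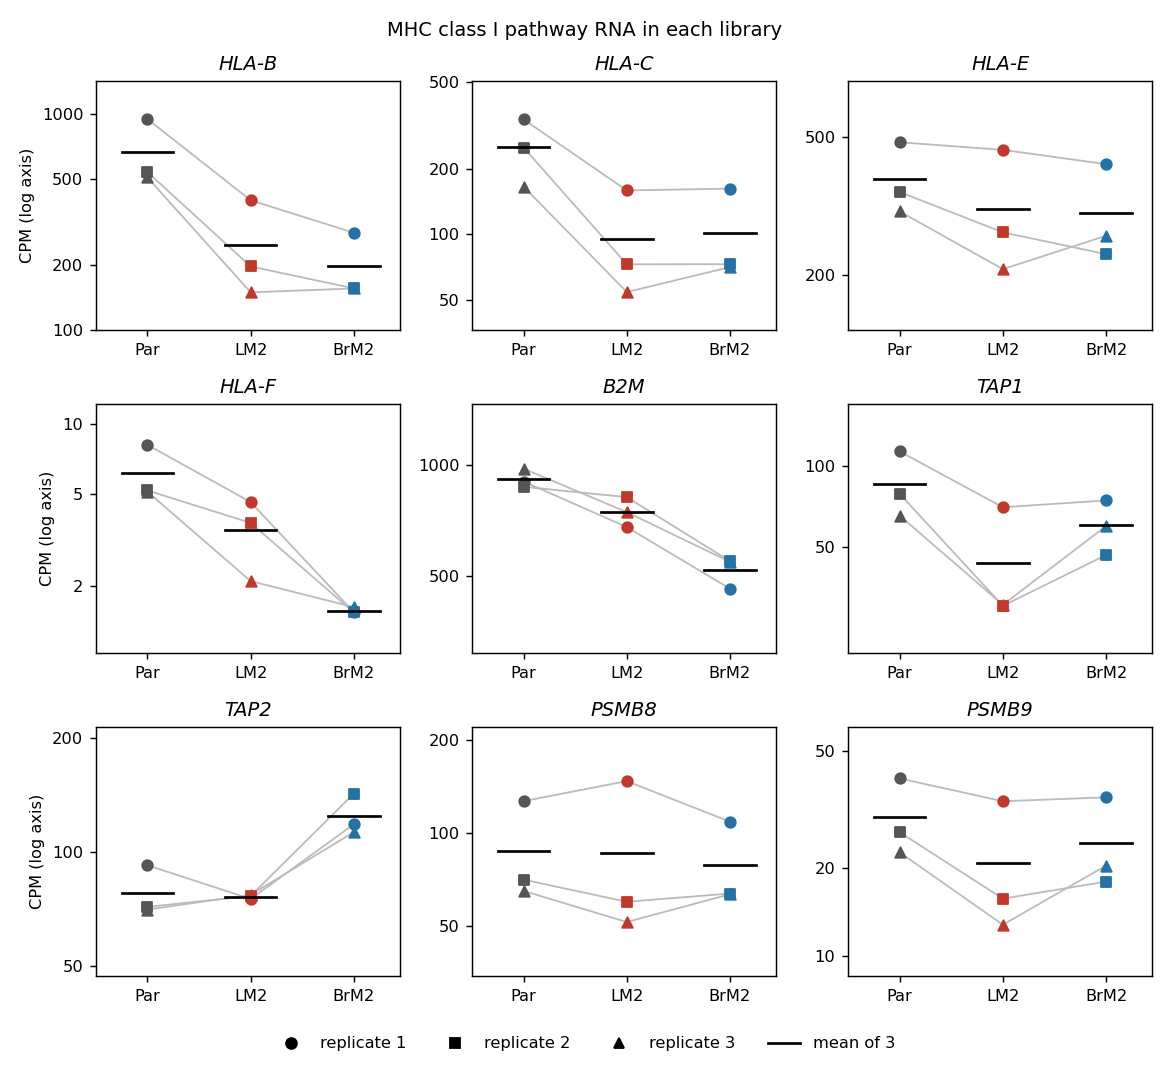
RNA level of each of the 9 genes in CPM on a log axis, with 1 point per library, a gray line between libraries of the same replicate number and a black bar at the mean of the 3 replicates. Replicate 1 (circles) is the highest library of its line in HLA-B, HLA-C, HLA-E, TAP1, PSMB8 and PSMB9, and TAP2 is the gene whose BrM2 libraries all lie above the others.

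HLA-B, a classical heavy chain (chr6:31353875-31357179 in GRCh38.p14, as for the genes that follow), fell in BrM2 and had low values in LM2 as well. It was at 947, 538 and 509 CPM in replicates 1 to 3 of Par, at 399, 197 and 150 CPM in those of LM2, and at 282, 156 and 156 CPM in those of BrM2. All libraries of LM2 and BrM2 were below all of Par, and those of LM2 and BrM2 overlapped. In BrM2 against Par HLA-B had a log2 fold change of -1.75 (SE 0.43), a level 3.35-fold lower, with an adjusted p of 0.0292 (edgeR's quasi-likelihood test, Benjamini-Hochberg), and HLA-B was lower in 3 of 3 replicate numbers. This call was lost without Par replicate 1 or 2 and without BrM2 replicate 2 or 3, where the adjusted p reached 0.128 (edgeR, Benjamini-Hochberg). In LM2 the log2 fold change of -1.42 (SE 0.43) missed the threshold (edgeR, Benjamini-Hochberg adjusted p = 0.0826) and passed it in DESeq2 (adjusted p = 0.0260) and with the replicate block, at -1.48 (SE 0.13) and an adjusted p of 1.24e-05 by the same test.

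HLA-C, the other classical heavy chain among the 9 genes (chr6:31268749-31272092), differed from Par by similar amounts but did not pass the test. Par was at 337, 250 and 165 CPM, LM2 at 159, 72.8 and 54.3 CPM, and BrM2 at 162, 72.9 and 70.7 CPM. Both sub-populations were below Par in every library, although replicate 1 of LM2 (159 CPM) and of BrM2 (162 CPM) came close to replicate 3 of Par (165 CPM). Its log2 fold changes against Par were -1.39 (SE 0.49) in LM2 and -1.30 (SE 0.49) in BrM2, with adjusted p of 0.135 and 0.130 (edgeR's quasi-likelihood test, Benjamini-Hochberg). With the replicate block they were -1.50 (SE 0.16) and -1.36 (SE 0.16), with adjusted p of 4.13e-05 and 5.87e-05 in edgeR after Benjamini-Hochberg adjustment. Both comparisons of HLA-C also passed in edgeR without the filter on low counts, with Benjamini-Hochberg adjusted p of 0.0207 and 0.0228.

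HLA-E, whose product presents leader peptides of other class I chains (chr6:30489509-30494194), passed in no comparison with all 9 libraries, with or without the block. Its levels were 483, 347 and 306 CPM in Par, 459, 266 and 208 CPM in LM2, and 418, 230 and 260 CPM in BrM2. The libraries of all 3 lines overlapped, and replicate 1 was the highest in each. Against Par HLA-E had log2 fold changes of -0.28 (SE 0.35) in LM2 and -0.32 (SE 0.35) in BrM2, with adjusted p of 0.767 and 0.664 (edgeR's quasi-likelihood test, Benjamini-Hochberg). In LM2 the value of HLA-E was -0.67 without LM2 replicate 1, and -0.46 without replicate 1 of every line, where it passed (edgeR, Benjamini-Hochberg adjusted p = 0.0439).

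HLA-F (chr6:29723434-29738532) had the lowest counts, at most 155 in any library, and the largest fold decrease in BrM2 among the 9 genes. Par was at 8.14, 5.18 and 5.11 CPM, LM2 at 4.62, 3.76 and 2.11 CPM, and BrM2 at 1.55, 1.55 and 1.63 CPM. The 3 lines were ordered without overlap, Par above LM2 and LM2 above BrM2. In BrM2 against Par the log2 fold change was -1.96 (SE 0.34), a level 3.89-fold lower, with an adjusted p of 0.00589 (edgeR's quasi-likelihood test, Benjamini-Hochberg). This decrease kept its call without any 1 of the 9 libraries. The difference of -0.82 (SE 0.33) between LM2 and Par had an adjusted p of 0.194, and of 0.0167 with the replicate block (both edgeR, Benjamini-Hochberg). Between BrM2 and LM2 it was -1.14 (SE 0.34), with an adjusted p of 0.0837, and of 0.00864 with the block (both edgeR, Benjamini-Hochberg).

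B2M (chr15:44711517-44718145) encodes the light chain of class I molecules. It was at 904, 875 and 980 CPM in Par, at 680, 820 and 747 CPM in LM2, and at 462, 549 and 547 CPM in BrM2. As with HLA-F, the lines were ordered Par, LM2, BrM2 without overlap, and replicate 1 was not the highest library of any line. B2M fell by 0.82 (SE 0.16) on the log2 scale in BrM2 against Par, a level 1.77-fold lower, with an adjusted p of 0.00934 (edgeR's quasi-likelihood test, Benjamini-Hochberg). The call was kept without any 1 of the 9 libraries. It was not kept without the filter on low counts, where the adjusted p was 0.0513 in edgeR after Benjamini-Hochberg adjustment. In LM2 the log2 fold change of -0.30 (SE 0.16) did not pass the test (edgeR, Benjamini-Hochberg adjusted p = 0.362). The difference of -0.53 (SE 0.16) between BrM2 and LM2 had an adjusted p of 0.0858, and of 0.00418 with the replicate block (both edgeR, Benjamini-Hochberg).

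TAP1 and TAP2, which work as a pair, had different profiles over the lines. TAP1 (chr6:32845209-32853704) was at 113, 78.9 and 65.5 CPM in Par, at 70.4, 30.4 and 30.6 CPM in LM2, and at 74.6, 46.8 and 60.0 CPM in BrM2. Replicate 1 of each sub-population reached into the range of Par, and no comparison of TAP1 passed the test. Its log2 fold change was -0.97 (SE 0.38) in LM2 and -0.51 (SE 0.38) in BrM2, with adjusted p of 0.182 and 0.487 (edgeR's quasi-likelihood test, Benjamini-Hochberg). Both passed with the replicate block, at -1.04 (SE 0.17) and -0.49 (SE 0.17), with adjusted p of 0.000994 and 0.0394 in edgeR after Benjamini-Hochberg adjustment. TAP1 was also higher in BrM2 than in LM2 with the block, by 0.56 (SE 0.17) on the log2 scale (edgeR, Benjamini-Hochberg adjusted p = 0.0269), where the fit without it gave 0.47 (SE 0.38) and an adjusted p of 0.568.

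TAP2 (chr6:32821831-32838739) rose in BrM2. It was at 92.1, 71.6 and 70.4 CPM in Par, at 75.1, 76.5 and 77.0 CPM in LM2, and at 118, 142 and 113 CPM in BrM2. Every library of BrM2 was above every library of Par and LM2, which overlapped each other. On the log2 scale TAP2 was higher by 0.67 (SE 0.18) against Par, a level 1.60-fold higher, and by 0.71 (SE 0.18) against LM2, 1.63-fold higher, with adjusted p of 0.0397 and 0.0462 (edgeR's quasi-likelihood test, Benjamini-Hochberg). These calls were close to the threshold. Of 9 fits with 1 library fewer, 2 gave the first call and 1 the second, with adjusted p up to 0.172 and 0.188 (edgeR, Benjamini-Hochberg). Neither passed in edgeR without the filter on low counts, at Benjamini-Hochberg adjusted p of 0.206 and 0.217. LM2 and Par differed by -0.03 (SE 0.18) on the log2 scale (edgeR, Benjamini-Hochberg adjusted p = 0.961). The ratio of TAP2 to TAP1, per length and within a library, was 0.372 to 0.492 in Par, 0.488 to 1.15 in LM2 and 0.725 to 1.39 in BrM2, so that BrM2 did not overlap Par in it.

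PSMB8 (chr6:32840717-32844679) and PSMB9 (chr6:32854192-32859851), the inducible subunits, showed the strongest shift of replicate 1 beside HLA-C and HLA-B. PSMB8 was at 127, 70.6 and 64.9 CPM in Par, at 147, 59.8 and 51.4 CPM in LM2, and at 109, 63.6 and 63.3 CPM in BrM2. PSMB9 was at 40.5, 26.5 and 22.6 CPM in Par, at 33.8, 15.7 and 12.8 CPM in LM2, and at 34.9, 18.0 and 20.4 CPM in BrM2. The libraries of all lines overlapped for both genes. The log2 fold change of PSMB8 was -0.02 (SE 0.45) in LM2 and -0.16 (SE 0.45) in BrM2, with adjusted p of 0.990 and 0.904 (edgeR's quasi-likelihood test, Benjamini-Hochberg). PSMB9 had -0.52 (SE 0.42) in LM2 and -0.29 (SE 0.42) in BrM2, with adjusted p of 0.600 and 0.764 by the same test. With the replicate block, PSMB9 in LM2 passed, at -0.60 (SE 0.16) and an adjusted p of 0.0125 (edgeR, Benjamini-Hochberg).

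A ratio within a library removes a shift that both genes share, and the inducible subunits were therefore set against the constitutive subunits they replace. PSMB9 to PSMB6, per length, was 0.0587 to 0.0671 in Par, 0.0334 to 0.0348 in LM2 and 0.0295 to 0.0399 in BrM2, so that both sub-populations were below Par in every library. PSMB8 to PSMB5 was 0.159 to 0.170 in Par, 0.149 to 0.188 in LM2 and 0.121 to 0.145 in BrM2, and only BrM2 did not overlap Par. The ratio of PSMB10, the third inducible subunit, to PSMB7 overlapped between all lines, with means of 0.0292 ± 0.00718 in Par, 0.0193 ± 0.00558 in LM2 and 0.0188 ± 0.00757 in BrM2 (SD, n = 3). Such a ratio shows unequal change of 2 genes and not which of them changed. With 3 libraries against 3, a 2-sided exact permutation test cannot give a p below 0.1, and none is given for the ratios.

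The make-up of the heavy chain RNA differed between the lines. Per length, HLA-E made up 35.0 ± 2.25% of the RNA of HLA-B, HLA-C, HLA-E and HLA-F in Par, 54.4 ± 3.00% in LM2 and 55.8 ± 2.85% in BrM2 (SD, n = 3). HLA-B made up 38.0 ± 3.04% in Par, 26.6 ± 1.24% in LM2 and 22.9 ± 0.771% in BrM2. HLA-C made up 26.5 ± 3.12%, 18.5 ± 1.81% and 21.0 ± 2.74% in the same order. The ratio of HLA-B to HLA-E was 0.979 to 1.24 in Par, 0.454 to 0.549 in LM2 and 0.379 to 0.429 in BrM2, with no overlap between any 2 lines. Replicate 1 had the highest ratio in Par and LM2 and not in BrM2. The summed level of the 4 heavy chain genes was 282 to 506 CPM per kilobase in Par, 126 to 308 in LM2 and 142 to 269 in BrM2, so that replicate 1 of LM2 reached into the range of Par.

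**Figure D3:**
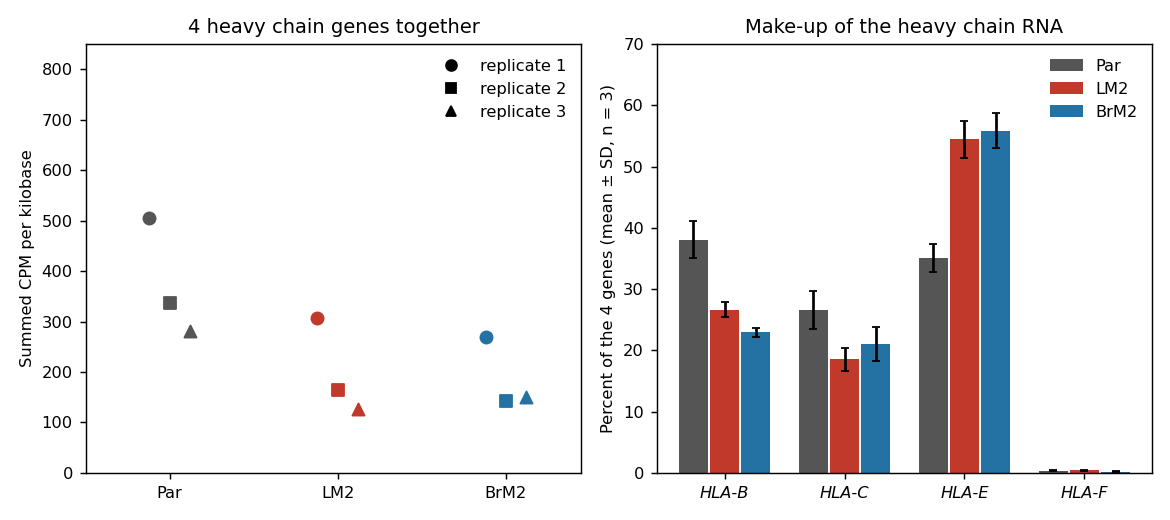
Left, the summed level of 4 heavy chain genes in CPM per kilobase, with 1 point per library and the shape giving the replicate. Right, the percentage of that sum taken by each gene, as the mean and SD of 3 replicates per line. The share of HLA-E is 35.0% in Par and 55.8% in BrM2, while that of HLA-B is 38.0% and 22.9%.

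Over the 9 genes, LM2 against Par gave no call in edgeR's quasi-likelihood test at an adjusted p of 0.05 (Benjamini-Hochberg), where 8.67% of all genes tested were called. The log2 fold change was below 0 for all 9 and for 48.6% of all genes tested. The unadjusted p was below 0.05 for 4 of the 9 and for 20.2% of all genes tested, and DESeq2 called 1 of the 9, HLA-B. DESeq2 called 14.5% of all genes tested. HLA-B, HLA-C, HLA-F and B2M were lower without overlap of libraries, 4 of 9 genes, where 13.3% of all genes tested were lower and 25.1% did not overlap in either direction. Within all 3 replicate numbers 7 of 9 were lower, beside 32.3% of all genes tested. With the replicate block 5 of 9 were called lower, namely HLA-B, HLA-C, HLA-F, TAP1 and PSMB9, where 19% of all genes tested were called lower and 34.5% in either direction. The median log2 fold change was -0.52 over the 9 genes and 0.01 over all genes tested.

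BrM2 against Par gave 4 calls among the 9 genes by the same test, beside 13.2% of all genes tested. HLA-B, HLA-F and B2M fell, 3 of 9 genes, where 6.98% of all genes tested were called lower, and TAP2 rose, where 6.24% were called higher. The same 3 genes and HLA-C were lower without overlap of libraries, beside 16.1% of all genes tested, and TAP2 was higher, beside 15.2%, which makes 5 of 9 beside 31.3% in either direction. Within all 3 replicate numbers 8 of 9 were lower, beside 33.8% of all genes tested, and TAP2 was higher, beside 29%. With the block 6 of 9 were called, beside 42.7% of all genes tested, as HLA-C and TAP1 joined them, and 23.2% of all genes were lower and 19.5% higher in that fit. DESeq2 called 4 of 9, beside 19.3%. The median log2 fold change was -0.51 over the 9 genes and -0.02 over all genes tested. LM2 and BrM2 were compared with the same Par libraries, and their values against Par are therefore not independent of each other.

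BrM2 against LM2 gave 1 call, the higher level of TAP2, beside 8.11% of all genes tested, of which 4.1% were higher and 4.01% lower. DESeq2 called 3 of 9, beside 13.9%. HLA-F and B2M were lower and TAP2 was higher without overlap of libraries, 3 of 9 genes, where 23.2% of all genes tested did not overlap, 11.7% lower and 11.4% higher. Within all 3 replicate numbers 2 were lower and 4 higher, beside 34.7% and 30.6% of all genes tested. With the block B2M and HLA-F were called lower and TAP1 and TAP2 higher, 4 of 9 genes beside 37.6% of all genes tested, 19.7% lower and 17.9% higher. The median log2 fold change was -0.04 over the 9 genes and -0.03 over all genes tested. Without replicate 1 of every line, edgeR called 5 of the 9 genes in LM2 against Par, 5 in BrM2 against Par and 3 in BrM2 against LM2, beside 33.1%, 40.3% and 32.6% of all genes tested. Without replicate 2 it called 0 of the 9 in each comparison, beside 0.538%, 1.18% and 0.408%, and the unadjusted p was below 0.05 for 0, 3 and 0 of them. Without replicate 3 it called 0 as well, beside 1.04%, 2.08% and 0.869%, with 0, 3 and 2 unadjusted p below 0.05. DESeq2 was not run without a replicate number.

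**Figure D4:**
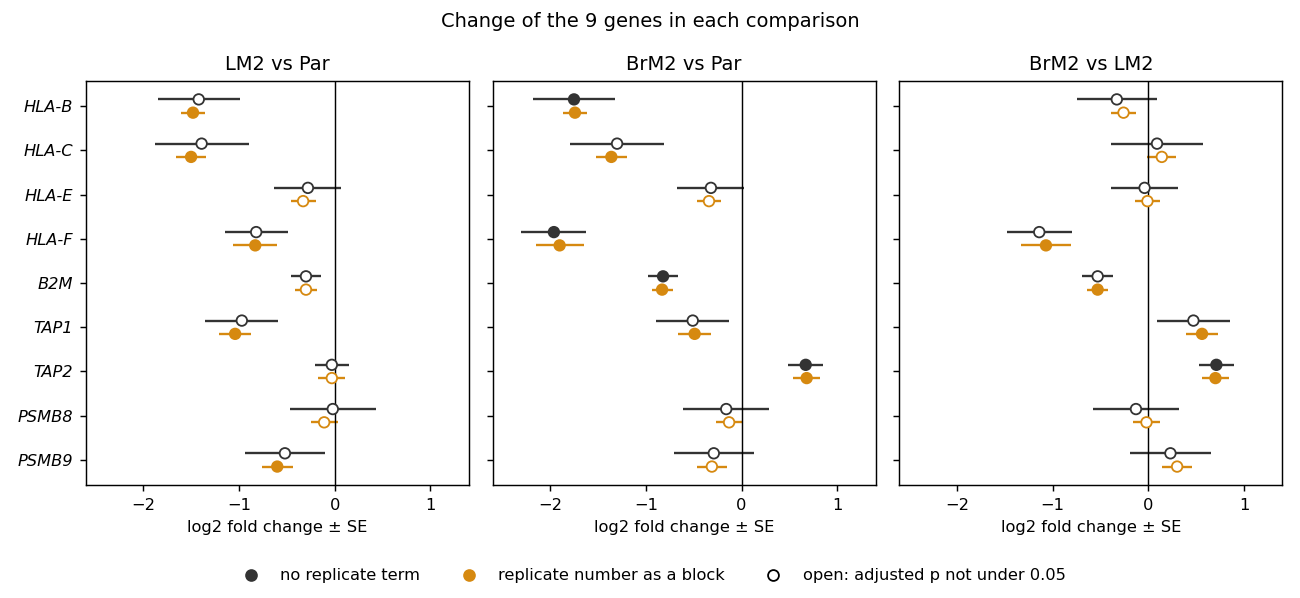
Log2 fold change and SE of the 9 genes in the 3 comparisons, without a term for the replicate (gray) and with the replicate number as a block (orange), filled where the adjusted p was below 0.05. The estimates of the 2 fits lie close to each other and the SE is smaller with the block, as for HLA-B in LM2 (0.43 and 0.13).

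The genes also differed among themselves in how they followed the lines. After the mean of each replicate number was removed, HLA-C (r = 0.95), HLA-B (0.94), HLA-E (0.93), PSMB9 (0.91) and TAP1 (0.89) were closest to the mean profile of the 9 genes over the 9 libraries, and TAP2 ran against it (-0.40). TAP1 and PSMB9, the head-to-head pair, had a Pearson r of 0.97 over the 9 libraries, as had HLA-F and B2M, which lie on different chromosomes. B2M and TAP2 had an r of -0.82. Each of the 9 genes is itself part of the mean profile, which raises its r with it, whereas genes outside the 9 are not. These correlations describe 9 libraries that share their lines and replicate numbers. Outside the 9 genes, EMP3 (r = 0.990), TCTN1 (0.986), ARF5 (0.985), AP1S1 (0.982) and USP30 (0.982) had the profiles most like the mean of the 9. Among them TCTN1 passed the threshold, with a log2 fold change of -1.05 in LM2 and -1.01 in BrM2 and adjusted p of 0.0251 and 0.0217 (edgeR's quasi-likelihood test, Benjamini-Hochberg).

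Among 13 regulators of class I transcription, edgeR called 1 in LM2 against Par, 1 in BrM2 against Par and 1 in BrM2 against LM2. The share of all genes tested was 8.67%, 13.2% and 8.11% in the same order. Against Par, NLRC5 fell in BrM2 and RFXAP rose in LM2, and RFXAP was the call between BrM2 and LM2. The replicate block called 3, 3 and 7 of the 13, beside 34.5%, 42.7% and 37.6% of all genes tested. NLRC5, the class I transactivator, was at 66.1, 44.9 and 41.8 CPM in Par, at 53.4, 30.5 and 29.4 CPM in LM2, and at 26.8, 19.2 and 19.4 CPM in BrM2. All BrM2 libraries were below all others. NLRC5 fell by 1.23 (SE 0.31) on the log2 scale in BrM2 against Par, with an adjusted p of 0.0297 (edgeR's quasi-likelihood test, Benjamini-Hochberg), and 4 of 9 fits with 1 library fewer gave the call again. In LM2 it was -0.43 (SE 0.30), with an adjusted p of 0.522, and of 0.0152 with the replicate block (both edgeR, Benjamini-Hochberg), and in BrM2 against LM2 -0.79 (SE 0.30), with an adjusted p of 0.173, and of 0.000990 with the block (both edgeR, Benjamini-Hochberg).

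RFXAP, a subunit of the RFX complex that binds MHC promoters, was at 2.94, 4.36 and 3.50 CPM in Par, at 7.20, 10.6 and 8.28 CPM in LM2, and at 2.43, 4.81 and 3.50 CPM in BrM2. LM2 stood above both other lines without overlap. RFXAP was higher in LM2 than in Par by 1.27 (SE 0.30) on the log2 scale, with an adjusted p of 0.0333 (edgeR's quasi-likelihood test, Benjamini-Hochberg), and BrM2 differed from Par by 0.00 (SE 0.30). The call in LM2 recurred in 3 of 9 fits with 1 library fewer. IRF1, a factor induced by interferon, was at 42.0 ± 20.8 CPM in Par, 53.6 ± 30.5 in LM2 and 28.8 ± 7.82 in BrM2 (SD, n = 3), and its adjusted p was 0.780 in LM2 and 0.549 in BrM2 (edgeR, Benjamini-Hochberg). In the fit with the block, IRF1 had log2 fold changes of -0.46 (SE 0.15) in BrM2 against Par, with an adjusted p of 0.0297, and of -0.78 (SE 0.15) in BrM2 against LM2, with an adjusted p of 0.00241 (both edgeR, Benjamini-Hochberg).

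None of 12 other tested genes of peptide supply and loading passed the threshold in any comparison in edgeR (Benjamini-Hochberg). Of all genes tested, 8.67% passed in LM2 against Par, 13.2% in BrM2 against Par and 8.11% in BrM2 against LM2. In the same order the unadjusted p was below 0.05 for 2, 1 and 1 of the 12, beside 20.2%, 25% and 20.9% of all genes tested. DESeq2 called 0, 1 and 1 of them, beside 14.5%, 19.3% and 13.9%. The block called 5, 3 and 4 of the 12, beside 34.5%, 42.7% and 37.6%. TAPBP, the tapasin gene that links the transporter to the heavy chain, was at 205 ± 38.6 CPM in Par, 108 ± 34.7 in LM2 and 150 ± 58.3 in BrM2 (SD, n = 3). The log2 fold change of TAPBP was -0.92 (SE 0.32) in LM2 and -0.45 (SE 0.32) in BrM2, with adjusted p of 0.136 and 0.466, and of 0.000581 and 0.0173 with the replicate block (all edgeR, Benjamini-Hochberg). In BrM2 against LM2 TAPBP had 0.47 (SE 0.32), with an adjusted p of 0.481, and of 0.0301 with the block (both edgeR, Benjamini-Hochberg). PSMB10 was at 6.92 ± 2.54, 5.77 ± 2.97 and 4.37 ± 2.38 CPM, and its adjusted p was 0.873 in LM2 and 0.511 in BrM2 (edgeR, Benjamini-Hochberg). The 14 subunits of the constitutive proteasome core had no call in any comparison either, with 1, 0 and 0 unadjusted p below 0.05 and no call by DESeq2. Within this core, PSMA4 had the smallest adjusted p in LM2 against Par (0.53, SE 0.22) and in BrM2 against LM2 (-0.49, SE 0.22), with 0.205 and 0.244, and with 0.00696 and 0.00875 in the blocked fit (all edgeR, Benjamini-Hochberg). PSMB2 had it in BrM2 against Par (0.50, SE 0.29), with 0.343, and with 0.00273 in the blocked fit, which also called PSMB2 in BrM2 against LM2 at 0.000999 (all edgeR, Benjamini-Hochberg).

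Of 29 tested interferon-stimulated genes, 5 fell in LM2 and 7 in BrM2 against Par and 0 rose, beside 4.51% and 6.98% of all genes tested that were called lower. Those that fell in LM2 were GBP2, BST2, IFI27, IFIT1 and OAS2, and they fell in BrM2 as well, together with IFIH1 and GBP1. The block called 14 lower in LM2, beside 19% of all genes tested. In BrM2 it called 16 lower and 1, OAS3, higher, beside 23.2% and 19.5% of all genes tested. The median log2 fold change of the 29 genes was -0.58 in LM2 and -0.68 in BrM2. GBP2, a guanylate-binding protein induced by interferon gamma, was at 43.6, 53.0 and 64.2 CPM in Par, at 13.1, 13.7 and 14.3 CPM in LM2, and at 6.56, 7.64 and 10.6 CPM in BrM2. The 3 lines did not overlap. GBP2 fell by 1.97 (SE 0.24) on the log2 scale in LM2 and by 2.69 (SE 0.25) in BrM2, with adjusted p of 0.00134 and 0.000243 (edgeR's quasi-likelihood test, Benjamini-Hochberg). Between BrM2 and LM2 the blocked fit also called GBP2, at an adjusted p of 0.00292 (edgeR, Benjamini-Hochberg). MX1, an antiviral GTPase, had the smallest adjusted p of this list between BrM2 and LM2, 0.105, at a log2 fold change of 1.03 (SE 0.33), and passed with the block at 0.000715 (both edgeR, Benjamini-Hochberg). In LM2 against Par MX1 had -0.89 (SE 0.33), with an adjusted p of 0.156, and of 0.00201 with the block (both edgeR, Benjamini-Hochberg). Between BrM2 and LM2 no gene of this list was called in edgeR (Benjamini-Hochberg), with 7 unadjusted p below 0.05 and 2 calls by DESeq2, whereas the block called 9 lower and 6 higher. Of all genes tested, 8.11% were called in edgeR, 20.9% had an unadjusted p below 0.05 and DESeq2 called 13.9%. With the block 19.7% of them were lower and 17.9% higher.

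Of 9 tested genes of interferon receptors and signalling, 1 fell in LM2 and 2 fell in BrM2, beside 4.51% and 6.98% of all genes tested. IFNGR2, a chain of the interferon gamma receptor, was at 49.9, 32.1 and 34.4 CPM in Par, at 21.4, 15.8 and 15.6 CPM in LM2, and at 19.8, 19.3 and 16.3 CPM in BrM2, with both sub-populations below Par in every library. Its log2 fold change was -1.14 (SE 0.24) in LM2 and -1.07 (SE 0.24) in BrM2, with adjusted p of 0.0194 and 0.0187 (edgeR's quasi-likelihood test, Benjamini-Hochberg), and each call recurred in 6 of 9 fits with 1 library fewer. STAT2, which transmits type I interferon signals, fell by 0.83 (SE 0.18) in BrM2 (edgeR, Benjamini-Hochberg adjusted p = 0.0167). This call recurred in 5 of 9 fits with 1 library fewer and was lost in edgeR without the filter on low counts (Benjamini-Hochberg adjusted p = 0.0898). In LM2 its log2 fold change was -0.46 (SE 0.18), with an adjusted p of 0.184, and of 0.0203 with the replicate block (both edgeR, Benjamini-Hochberg). No gene of this list was called between BrM2 and LM2 in edgeR (Benjamini-Hochberg), with 0 unadjusted p below 0.05 and 0 calls by DESeq2, and STAT2 had the smallest adjusted p there (0.294). The block called 2 genes there, beside 37.6% of all genes tested. These were STAT2, lower (adjusted p = 0.0456), and PTPN2, higher by 0.79 (SE 0.11) at an adjusted p of 0.000379 (both edgeR, Benjamini-Hochberg). PTPN2, a phosphatase that dampens interferon signalling and that was singled out after its values were seen, had a log2 fold change of 1.05 (SE 0.41) in BrM2 against Par, at an adjusted p of 0.148, and of 1.04 (SE 0.11) at 4.28e-05 with the block (both edgeR, Benjamini-Hochberg).

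Of 8 tested class I-like genes, HFE and MR1 fell in both LM2 and BrM2, beside 4.51% and 6.98% of all genes tested. The block called 5 lower in LM2, beside 19%, and 4 lower and 1 higher in BrM2, beside 23.2% and 19.5%. HFE, a class I-like protein of iron uptake that also binds beta-2-microglobulin, was at 32.1 ± 1.84 CPM in Par, 16.3 ± 0.259 in LM2 and 10.3 ± 1.24 in BrM2 (SD, n = 3), with log2 fold changes of -0.97 (SE 0.18) and -1.64 (SE 0.18) and adjusted p of 0.00947 and 0.000523 (edgeR's quasi-likelihood test, Benjamini-Hochberg). The call of HFE in LM2 was lost without LM2 replicate 2 and without the filter on low counts, with adjusted p of 0.0519 and 0.0744 (edgeR, Benjamini-Hochberg). MR1, which presents vitamin metabolites, had log2 fold changes of -1.15 (SE 0.29) and -1.41 (SE 0.30), with adjusted p of 0.0442 and 0.0141 in edgeR (Benjamini-Hochberg). These calls of MR1 recurred in 2 and 6 of 9 fits with 1 library fewer, and that in LM2 was lost with RLE factors and without the filter on low counts, with adjusted p of 0.0626 and 0.0617 (edgeR, Benjamini-Hochberg). Between BrM2 and LM2 HFE had -0.67 (SE 0.18), with an adjusted p of 0.0538, and of 0.00298 with the block (both edgeR, Benjamini-Hochberg). Of 8 tested MHC class II genes, HLA-DPA1, HLA-DRA and HLA-DMB fell in LM2, and HLA-DPA1 and HLA-DRA fell in BrM2, beside 4.51% and 6.98% of all genes tested. The block called 7 and 8 lower, beside 19% and 23.2%. In both comparisons all 8 had a log2 fold change below 0, beside 48.6% and 51.5% of all genes tested. The medians of the 8 genes were -1.53 and -1.28. HLA-DPA1, a class II alpha chain, was at 32.7, 27.7 and 31.0 CPM in Par, at 10.1, 6.94 and 4.72 CPM in LM2, and at 10.8, 7.06 and 8.73 CPM in BrM2. It fell by 2.07 (SE 0.31) and 1.78 (SE 0.30) on the log2 scale, with adjusted p of 0.00340 and 0.00504 (edgeR, Benjamini-Hochberg). CIITA, the class II transactivator, had the smallest adjusted p of the class II genes between BrM2 and LM2 (0.240, log2 fold change -0.59, SE 0.26), and 0.0102 with the block (both edgeR, Benjamini-Hochberg). In BrM2 against Par CIITA had -0.79 (SE 0.26), with an adjusted p of 0.0872, and of 0.00128 with the block (both edgeR, Benjamini-Hochberg).

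Class II RNA was present in every line, with a summed level of 11 genes of 495 to 758 CPM in Par, 200 to 498 in LM2 and 155 to 368 in BrM2, while PTPRC was near 0. Of the leukocyte markers, 3 of 12 were tested, and CSF1R, the receptor of macrophage colony-stimulating factor, fell in BrM2 from 8.46 to 1.25 CPM on average (log2 fold change -2.76, SE 0.50, edgeR, Benjamini-Hochberg adjusted p = 0.00696). In LM2 it was at 7.25, 2.29 and 3.03 CPM, with an adjusted p of 0.259, and of 0.00560 with the replicate block (both edgeR, Benjamini-Hochberg). Between BrM2 and LM2 CSF1R had -1.74 (SE 0.49), with an adjusted p of 0.0700, and of 0.00173 with the block (both edgeR, Benjamini-Hochberg). CSF1R moved in the same direction as HLA-B, HLA-F and B2M in BrM2, and its part in their change was not tested. CD8A went the other way, at 1.55, 2.29 and 2.21 CPM on average in Par, LM2 and BrM2, without overlap against Par. CD14 was at 3.66, 2.07 and 1.92 CPM. Of these 3 markers edgeR called 0 in LM2 against Par, 1 in BrM2 against Par and 0 in BrM2 against LM2. The share of all genes tested was 8.67%, 13.2% and 8.11%. With the block 2, 2 and 1 were called, beside 34.5%, 42.7% and 37.6%.

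**Figure D5:**
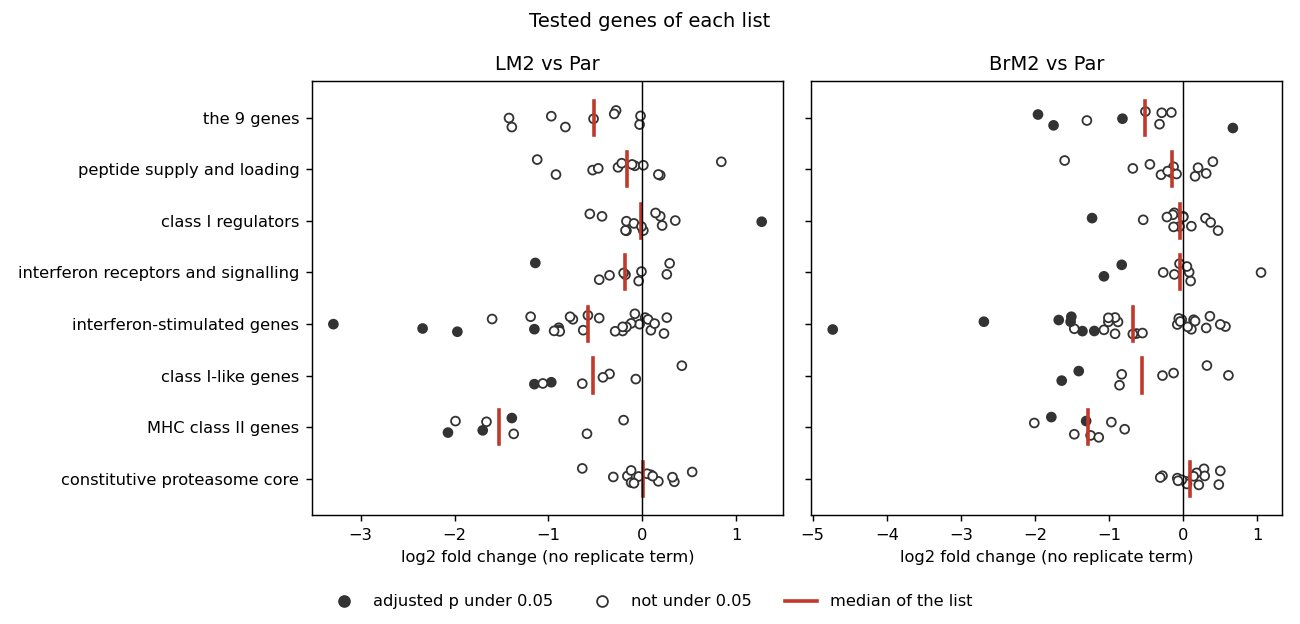
Log2 fold change against Par of the tested genes in each list, without a term for the replicate, in LM2 (left) and BrM2 (right), with filled points where the adjusted p was below 0.05 and a red bar at the median of the list. The medians of the MHC class II genes are the lowest, at -1.53 and -1.28, and that of the constitutive proteasome core is near 0.

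The other genes between the outermost of the 9 genes on chromosome 6 had different medians in the sub-populations. Of 71 tested genes there, 5 were called lower in LM2 and 6 in BrM2 against Par, beside 4.51% and 6.98% of all genes tested, and 2 were called higher in BrM2 than in LM2, beside 4.1%. Those lower in LM2 were HLA-DRA, HSPA1A, DDR1, HCP5 and HLA-K, and those higher in BrM2 than in LM2 were PRRT1 and HSPA1A. Their median log2 fold change was -0.27 in LM2, 0.02 in BrM2 and 0.26 in BrM2 against LM2, where all genes tested had 0.01, -0.02 and -0.03. With the replicate block 26 were lower and 1 higher in LM2, where 19% of all genes tested were lower and 34.5% were called in either direction. In BrM2 13 were lower and 10 higher with the block, beside 23.2% and 19.5% of all genes tested.

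Some counts could be shared between genes. Of the 50-base stretches of HLA-B transcripts, 29.6% occur in another gene, most of them in DHFRP2, which had 0 counts in every library. Of those of TAP2 18.5% occur in a gene without a symbol that had 0 counts as well. DHFRP2 overlaps HLA-B by 1421 bases and the gene without a symbol overlaps TAP2 by 2023 bases, both on the same strand. Whether reads in these overlaps were left uncounted was not tested, and the 0 counts of the partners do not show it. The share was 5.46% for HLA-C, 5.19% for HLA-E, 2.66% for PSMB9, 0.982% for HLA-F and 0.851% for TAP1, and no stretch of B2M or PSMB8 occurs in another gene. PSMB8 and PSMB9 overlap by 139 bases on opposite strands, and the antisense gene PSMB8-AS1, with a mean of 43.0 counts per library and a log2 fold change of -1.86 in BrM2 against Par, overlaps PSMB8 and TAP1. PSMB8-AS1 also overlaps PSMB9, by 174 bases on the same strand. As the counted strand is not stated in the sources used here, PSMB8, PSMB9, TAP1 and HLA-F, which overlaps HLA-F-AS1, are uncertain to that extent. Reads of the HLA genes were aligned to the reference alleles, and how the alleles of this line match them was not tested.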

How the data were processed

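RNA-seq libraries of Par, LM2 and BrM2 (3 each) were analysed. The authors made stranded mRNA libraries, aligned paired-end reads to hg38 with STAR 2.7.0 and deposited raw counts per gene, and the submitters' processing notes also name CASAVA 1.8.2. The authors' table of log2 fold changes and adjusted p-values of LM2 and BrM2 against Par was not used. Of 58887 rows, 3 repeated identifiers were merged. A filter written after HTSFilter (100 thresholds from 1 to 200, loess span 0.3) kept 13001 genes with a largest normalized count over 49.2.

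Counts were tested with edgeR 4.0.16 (TMM, 2-sided quasi-likelihood test, 3 groups, 9 libraries, R 4.3.3), adjusted by Benjamini-Hochberg over all genes tested, at a threshold of 0.05. Replicates are passages of 1 line. CPM used the normalized library sizes, and CPM per kilobase the exon length in GENCODE. At this depth 3 counts correspond to 0.115 to 0.221 CPM. DESeq2 1.42.0, RLE factors, no filter, the replicate block and fits that left out libraries were alternatives. Replicates of a line differed by more than counting noise, which bears only on a repeat of the same library.

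The labels number the replicates but do not say what a number shares. Deviations from the line means correlated at 0.23 to 0.90 in the 9 pairs of same-numbered libraries, each over 0.1, and the numbers were taken as pairs on that ground. Libraries of unlike numbers were not compared in this way. As replicate 1 stood apart in every line, these correlations cannot show that replicates 2 and 3 are matched by number. The blocked p-values rest on this pairing. The common dispersion was 0.110 without and 0.0207 with the block.

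The 9 genes and the gene lists were chosen with earlier results of these data known. The text names the 9 genes, the genes of peptide supply, loading and regulation past the threshold, NLRC5, IRF1, TAPBP and PSMB10, the gene with the smallest adjusted p per comparison of every other list, and the 5 genes of the most similar profile. MR1, the called genes of short lists, the genes on chromosome 6, the overlapping genes and the ratios were chosen after values were seen. Some results that this rule covers are not reported here. Promoters were found for 8 of the 9 genes by symbol in RefSeq, GRCh38.p14. Figures were drawn with matplotlib 3.10.9 in Python 3.11.15.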

Additional observations from a re-analysis of the deposited data

Results flagged for a closer look

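Differences of 5 named genes passed the test of BrM2 against LM2 itself (edgeR's quasi-likelihood test, Benjamini-Hochberg, log2 scale). They were sought among the 9 genes, other genes named in the text and 71 tested genes between those on chromosome 6. The test called 1 of the 9 genes and 2 of the 71, beside 8.11% of all genes tested. TAP2 was higher in BrM2 by 0.71 (SE 0.18), with an adjusted p of 0.0462. RFXAP was lower, with a log2 fold change of -1.27 (SE 0.30) and an adjusted p of 0.0351. CLDN4, a marker of the line, was higher by 1.77 (SE 0.43), with an adjusted p of 0.0386. Of 9 edgeR fits with 1 library fewer, 1 gave the call of TAP2, 3 that of RFXAP and 2 that of CLDN4, with adjusted p of up to 0.188, 0.143 and 0.159. On chromosome 6, between the outermost of the 9 genes, PRRT1 was higher by 2.50 (SE 0.36) and HSPA1A, a heat shock protein gene, by 2.16 (SE 0.36), with adjusted p of 0.00323 and 0.00622.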

How the results depend on the processing

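With the replicate block, 5 of the 9 genes were called in LM2 against Par, 6 in BrM2 against Par and 4 in BrM2 against LM2, where the fit without it called 0, 4 and 1. Of all genes tested, 34.5%, 42.7% and 37.6% were called with the replicate block, and 8.67%, 13.2% and 8.11% without it. Of 27 comparisons of the 9 genes the block moved 10 past the threshold and changed no other call. Among the genes of the other lists it called 45, 47 and 39, against 14, 17 and 2, and among those between the chromosome 6 genes 27, 23 and 26, against 5, 6 and 2. DESeq2 called 1, 4 and 3 of the 9 genes, 8 genes of the other lists in BrM2 against LM2, and 12, 11 and 7 genes between those on chromosome 6. Of all genes tested it called 14.5%, 19.3% and 13.9%. RLE factors called 0 of the 9 genes in BrM2 against LM2, where TAP2 had an adjusted p of 0.0552 (edgeR). PSMB8 in LM2 against Par changed sign to 0.02 with RLE factors and with DESeq2. Without the filter on low counts, 2 of the 9 genes were called in LM2 against Par and 0 in BrM2 against LM2, with 5 genes of the other lists and 6 of those between the chromosome 6 genes in the latter. The share of all genes called with RLE factors or without the filter is not given here, so those counts cannot be read against it. With the length of the longest transcript in place of the exon length, PSMB8, the middle of the 9 levels in Par, was at 36.9 instead of 25.1 CPM per kilobase, and HLA-F at 3.98 instead of 1.42. The cause was not tested for any of these.

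Over 12 fits that left out 1 library or 1 replicate number, calls among the 9 genes ranged from 0 to 5 in LM2 against Par, 0 to 5 in BrM2 against Par and 0 to 3 in BrM2 against LM2. Those of the other lists ranged from 0 to 42, 0 to 51 and 0 to 36, and those between the chromosome 6 genes from 0 to 26, 0 to 23 and 0 to 27. The highest count of each range came without replicate 1 of every line, where 33.1%, 40.3% and 32.6% of all genes tested were called. The median log2 fold change of the 9 genes ranged from -1.06 to -0.29, from -0.69 to -0.26 and from -0.41 to 0.50. None of the genes that changed sign in these fits had been called in the same comparison with all 9 libraries and no block, although some were called in another comparison. In LM2 against Par they were TAP2 (-0.10 to 0.11), PSMB8 (-0.65 to 0.35), IRF1 (-0.22 to 0.84), PSMB10 (-0.71 to 0.06) and PSMB2 (-0.40 to 0.13). In BrM2 against Par they were PSMB8 (-0.46 to 0.21), PSMA4 (-0.03 to 0.19) and MX1 (-0.02 to 0.37), and RFXAP also took both signs (-0.27 to 0.21). In BrM2 against LM2 they were HLA-B (-0.67 to 0.19), HLA-C (-0.41 to 0.68), HLA-E (-0.34 to 0.35), PSMB8 (-0.44 to 0.50), PSMB9 (-0.11 to 0.77), PSMB10 (-0.88 to 0.03) and IFNGR2 (-0.04 to 0.24). HLA-F, at 21 to 155 counts per library, had the least depth of the 9 genes.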
